A study of Caenorhabditis elegans with 2 samples.

Results

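The X chromosome of Caenorhabditis elegans held 246 reproducible NHR-102 peaks outside promoters, 8.80% of the 2796 peaks in the authors' optimal list. A peak was counted when its summit, the base of highest signal, lay on X, outside every promoter window (1000 bp before to 200 bp after the annotated start of a protein-coding transcript), and more than 200 bp from every tRNA gene. The choice used position alone, so signal, sequence and agreement of the replicates were not part of it. The 246 members lay in 238 intervals, because 15 of them shared an interval with another member and differed in summit. On X, a further 247 peaks lay in promoters and 88 lay outside promoters within 200 bp of a tRNA gene, and on the autosomes 852 peaks met the same position rule.

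The study mapped where the nuclear hormone receptor NHR-102 sits on chromatin, by chromatin immunoprecipitation and sequencing of 2 biological replicates of whole hermaphrodites. All animals were L4 larvae of strain OP463, genotype unc-119(tm4063) III; wgIs463, taken 50 h after synchronization by starvation of bleached embryos hatched to L1. wgIs463 is an integrated transgene that adds NHR-102 with a GFP-FLAG tag at its C-terminus, so the tagged copy is extra to the endogenous gene. The description names an antibody against GFP, while the antibody label names nhr-102. There was 1 group, and no untagged strain was analysed here, so enrichment that any tagged protein or the antibody itself would give cannot be told apart from binding of NHR-102.

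Nuclear hormone receptors are transcription factors with a zinc-finger DNA-binding domain, and C. elegans has a greatly expanded family of them. Most sites of such factors in this compact genome lie close to gene starts, and peaks far from any start can mark distal elements, non-coding genes or places where many chromatin proteins gather. The X chromosome of hermaphrodites is further set apart by the dosage compensation complex, a condensin-based complex that loads at recruitment sites on X and spreads along the chromosome to lower its transcription. Those recruitment sites hold the MEX motif, a sequence enriched on X, whose 8-base core CGCGCAGG was searched here on both strands.

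Summit sequences of some members follow, each with 50 bases on either side of the summit. They are from the + strand of ce11, which is the same sequence as assembly WBcel235 of the RefSeq genome. The first set shows 7 of the 8 members with a signal over 1000 and a core within 100 bp of the summit, with the core or its reverse complement in capitals. The core at the T27A8.7 peak lay more than 50 bases from its summit, so it is not shown.
W02H3.3, chrX:11094154-11094254: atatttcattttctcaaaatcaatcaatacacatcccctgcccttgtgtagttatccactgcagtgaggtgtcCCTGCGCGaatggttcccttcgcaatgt
cest-16, chrX:6296511-6296611: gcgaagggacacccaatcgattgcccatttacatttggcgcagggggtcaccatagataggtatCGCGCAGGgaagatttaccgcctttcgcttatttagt
gtr-1, chrX:806639-806739: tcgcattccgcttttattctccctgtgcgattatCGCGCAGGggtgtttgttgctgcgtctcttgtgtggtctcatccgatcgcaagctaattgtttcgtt
F20B6.9, chrX:4209227-4209327: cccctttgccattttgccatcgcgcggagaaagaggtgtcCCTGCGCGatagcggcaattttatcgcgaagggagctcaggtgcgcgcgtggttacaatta
F22H10.2, chrX:16682046-16682146: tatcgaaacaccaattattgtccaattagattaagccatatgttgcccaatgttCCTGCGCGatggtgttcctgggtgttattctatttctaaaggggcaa
xol-1, chrX:8036412-8036512: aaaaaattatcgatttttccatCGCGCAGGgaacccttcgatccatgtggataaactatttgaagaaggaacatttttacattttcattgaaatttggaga
Y41G9A.17, chrX:2997062-2997162: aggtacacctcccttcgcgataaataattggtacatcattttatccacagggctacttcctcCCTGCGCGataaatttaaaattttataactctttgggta

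The second set shows the 4 strongest members without an exact core. Capitals mark GCAGGGA, and likewise the sequence CGAAGGG and the unrelated sequence GTGGATA, each on either strand. These 3 sequences of 7 bases were picked after the strong members had been seen. GCAGGGA overlaps the end of the core by 5 bases and goes on past it.
K02D3.1, chrX:13700832-13700932: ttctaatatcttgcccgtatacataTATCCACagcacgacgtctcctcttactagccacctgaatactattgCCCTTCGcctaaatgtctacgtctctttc
ZK899.6, chrX:9465812-9465912: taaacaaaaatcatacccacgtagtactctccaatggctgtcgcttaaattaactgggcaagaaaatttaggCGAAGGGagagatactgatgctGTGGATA
C41A3.2, chrX:5429504-5429604: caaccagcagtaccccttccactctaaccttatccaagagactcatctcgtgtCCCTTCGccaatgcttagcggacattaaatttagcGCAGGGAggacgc
F55G7.5, chrX:11937487-11937587: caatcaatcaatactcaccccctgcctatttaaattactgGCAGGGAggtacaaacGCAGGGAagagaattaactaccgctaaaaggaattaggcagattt

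The third set shows the 3 strongest members outside the 100 strongest peaks of the list with an E-box, CACGTG, within 50 bp of the summit. Capitals mark the E-box and the GATA site TGATAA or its reverse complement.
R03E9.2, chrX:6737698-6737798: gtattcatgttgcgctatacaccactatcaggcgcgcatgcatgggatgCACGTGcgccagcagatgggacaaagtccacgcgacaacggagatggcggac
M163.1, chrX:14502354-14502454: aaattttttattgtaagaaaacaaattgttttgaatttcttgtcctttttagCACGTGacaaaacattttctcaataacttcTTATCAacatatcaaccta
mdl-1, chrX:6743981-6744081: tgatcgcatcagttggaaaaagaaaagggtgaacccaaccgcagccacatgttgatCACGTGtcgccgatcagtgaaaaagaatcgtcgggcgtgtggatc

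Signal here is the authors' value for each peak in their list, without unit, and it ranks peaks within a list. Members ran from 90.6 to 2297, with a median of 148 and quartiles of 112 and 223. Promoter peaks of X had a median of 136 and a highest value of 2006. Autosomal peaks outside promoters had a median of 136 and a highest value of 1024. Autosomal promoter peaks had a median of 143 and a highest value of 1849, and the highest value of the whole list was 4514. Typical members were thus close to other peaks, and the sets parted at the top.

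Members made up 22 of the 100 strongest peaks, against 8.80% of all peaks; by construction 3.58% of all 2796 peaks are in that class. Promoter peaks of X gave 7 of the 100, and autosomal peaks outside promoters gave 13. Among the 25 strongest the numbers were 11 for members, 1 for X promoters and 0 for autosomes outside promoters. Among the 500 strongest they were 53 for members, 49 for X promoters and 121 for autosomes outside promoters. The excess of members over their share of the list thus lay near its top. Autosomal promoter peaks, 45.1% of the list, gave 3 of the 25, 39 of the 100 and 234 of the 500 strongest. The strongest member ranked 6 in the list, and some of the 100 strongest peaks fell in none of these sets.

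Per length of sequence that meets the position rule, X outside promoters held 17.9 peaks per Mb over 13.8 Mb, and the autosomes held 14.2 per Mb over 60.1 Mb. The single autosomes ranged from 11.3 per Mb on I to 17.8 per Mb on III, so X was just above the highest autosome. For the 100 strongest peaks the density was 1.60 per Mb on X outside promoters and 0.216 per Mb on the autosomes outside promoters. With a signal over 1000 there were 14 members, against 2 autosomal peaks outside promoters in a larger sequence.

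**Figure D1:**
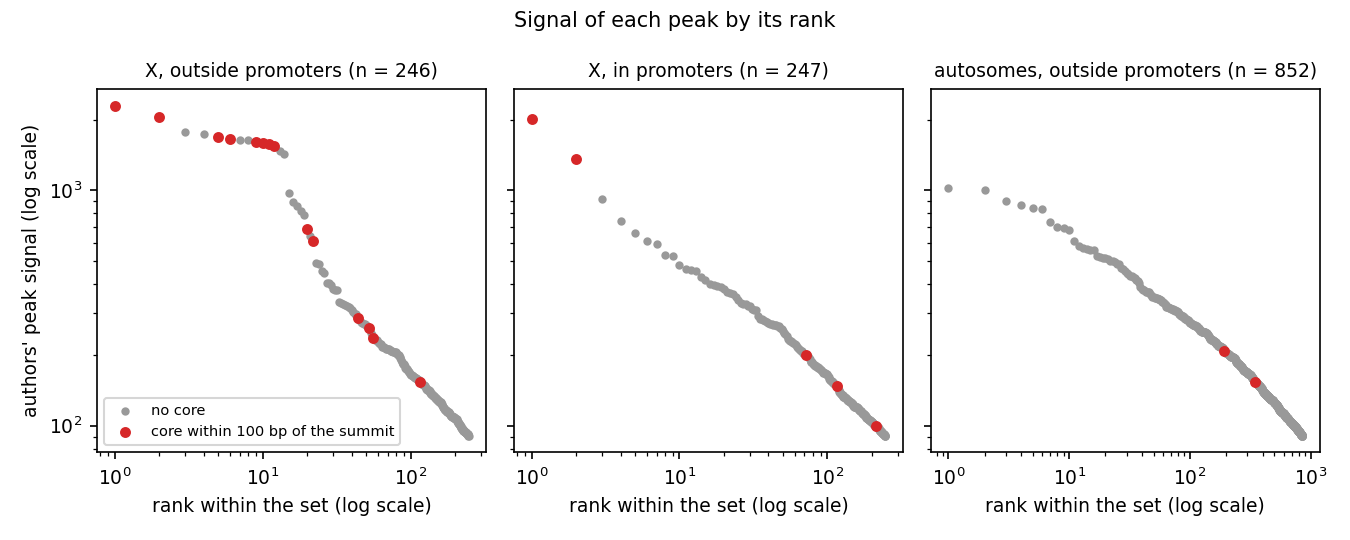
Each point is a peak; the x axis gives its rank within its set and the y axis the authors' signal, both on log scales. X peaks outside promoters (left) show a step of 14 peaks between 1428 and 2297, most of them with a core (red); X promoter peaks (centre) have a core at their 2 strongest, and autosomal peaks outside promoters (right) show no such step.

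The 14 strongest members formed a step. The lowest of them had a signal of 1428 and the next member 977. They were spread along the chromosome from 0.807 to 16.7 Mb, with gaps between neighbours of 426 to 2356 kb and a median gap of 1220 kb, and fell in 12 of the 18 bins of 1 Mb. Members as a whole numbered 4 to 28 per bin, with a median of 13.5, and the largest gap between neighbouring members was 637 kb. A boundary at 1000 was set after this step had been seen.

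The strongest member was nearest to W02H3.3, 3982 bp past its 5′ end, at chrX:11093760-11094555 and between genes. Its signal was 2297 in the pooled list, 1167 in replicate 1 and 1135 in replicate 2, ranks 6 and 5 of the replicate lists. The 100 bp on either side of the summit held 2 copies of the core. The second lay in an intron of mom-1, which encodes an acyltransferase needed to release Wnt ligands, and was nearest to the 5′ end of cest-16, a carboxylesterase gene, with a signal of 2054 in the pooled list, 1057 in replicate 1 and 1012 in replicate 2.

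K02D3.1 (1778) and ZK899.6 (1744) came next and had no exact core. T27A8.7 (1693) and gtr-1 (1658) had 1 and 2 cores within 100 bp of the summit. The peak nearest to C41A3.2 (1644) lay in a coding exon of pks-1, a polyketide synthase gene, and was 15204 bp from the nearest 5′ end, the largest distance of any member. F55G7.5 had a signal of 1643, F20B6.9 one of 1610 and F22H10.2 one of 1593. These peaks were within a narrow band, and their order changed between replicates.

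The member 4851 bp upstream of xol-1 had a signal of 1583 in the pooled list, 898 in replicate 1 and 704 in replicate 2. xol-1 is the switch gene that reads the number of X chromosomes and sets both sex and dosage compensation. The peak held 2 cores, 2 copies of GCAGGGA and 2 of GTGGATA, and its summit was 223 bp from a tRNA gene, the member nearest to that limit. It was the only one of the 6 X-linked genes in a list of dosage compensation and sex determination genes that was nearest to or host of a member.

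The step ended with Y41G9A.17 (1548, in its intron), F19H6.5 (1475) and fbxb-58 (1428), an F-box gene. Below it came F43E12.1 (977), F56C3.1 (895), T24D8.6 (860), bcat-1 (816), sdz-19 (787), hlh-29 (688), ZC53.1 (642) and col-185 (610), which complete the 22 among the 100 strongest. bcat-1 encodes a branched-chain amino acid aminotransferase, hlh-29 a basic helix-loop-helix factor of the REF-1 family and col-185 a cuticle collagen. After these, C30E1.4 had 490, R03E9.2 had 486 and K09C4.4 had 456.

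The core was found within 100 bp of the summit of 14 of 246 members (5.69%, exact binomial 95% interval 3.15 to 9.36%). The share was 2.02% at X promoter peaks, 0.235% at autosomal peaks outside promoters, 0.823% of all peaks and 0.0976% of all windows of that length on X. None of the 88 X peaks near tRNA genes had one. The core was known from earlier results of these data, so these shares are a description. Intervals cover counting error only, and peaks are not replicates: the 14 lay in 13 intervals, and 2 of them, both near hlh-29, are copies of each other.

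Within the members, the core went with signal. It was present at 10 of the 22 strong members (45.5%, 24.4 to 67.8%) and at 4 of the 224 others (1.79%, 0.489 to 4.51%). Members with a core had a median signal of 1565 (154 to 2297), and members without one a median of 142 (90.6 to 1778). The 4 outside the strong class were a second summit of the Y41G9A.17 interval (286), C49F8.15 (260), the second hlh-29 peak (236) and a peak in a pseudogene (154). The 2 strongest promoter peaks of X also held a core, so the sequence was not confined to members.

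**Figure D2:**
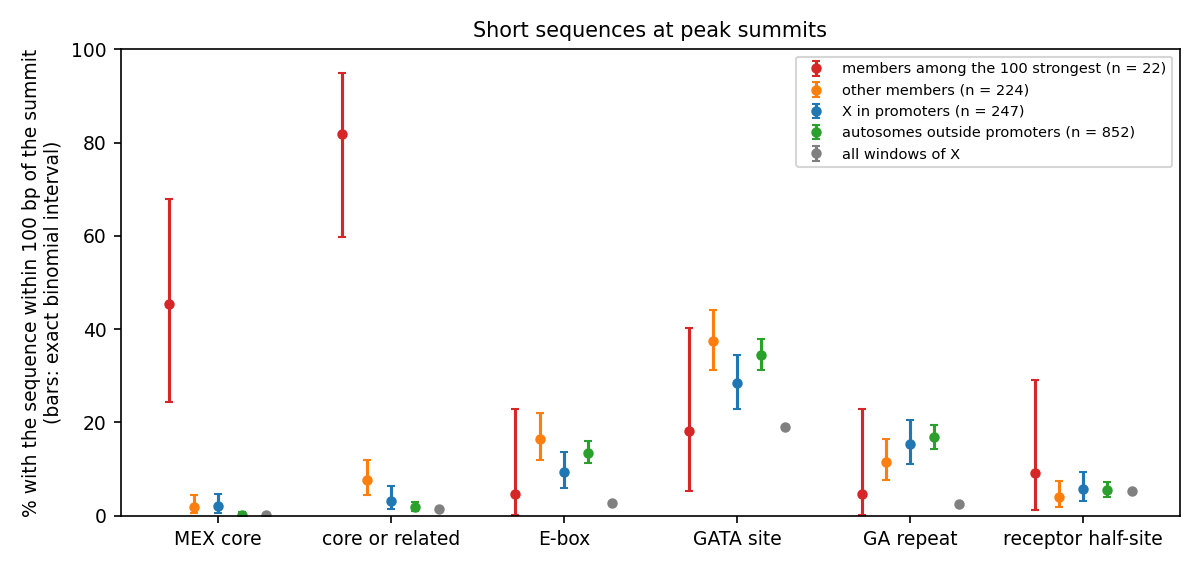
Share of peaks with each short sequence within 100 bp of the summit, in percent, with exact 95% binomial intervals, for members among the 100 strongest, other members, X promoter peaks, autosomal peaks outside promoters and all windows of X. The core and its relatives are highest at the strong members (45.5% and 81.8%), and the E-box and GATA site stand above all windows of X at the other members (16.5% and 37.5%).

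The core sat at the summit. Counted to its centre, the nearest core was 6.5 to 96.5 bp from the summit, with a median of 16.5 bp, and it was within 50 bp at 12 of the 14 members. Within 500 bp of member summits there were 20 instances, 18 of them within 100 bp. Seen from the genome, X held 95 cores, of which 23 (24.2%, 16.0 to 34.1%) lay within 100 bp of a summit of the list, 18 of them nearest to a member. The autosomes held 279, of which 4 (1.43%) lay within 100 bp of a summit, so most cores on X and nearly all on autosomes had no peak in the list.

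The bases beside the core differed between these places. Of the 18 cores within 200 bp of a member summit, 15 were preceded by T, 13 were followed by G and 11 had both. Of the 71 cores on X more than 200 bp from any summit, 30 were preceded by T, 16 were followed by G and 6 had both. An A came next after the following base in 13 of the 18, which gives the ending seen in the capitals and lower case of the xol-1 and cest-16 sequences above.

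With 1 mismatch allowed, the core was found at 14 of the 22 strong members (63.6%), 20 of the 224 others (8.93%), 8.91% of all peaks and 2.68% of windows of X. GCAGGGA was present at 13 of the 22 strong members and 7 of the 224 others, against 1.82% of all peaks and 0.734% of windows of X. CGAAGGG was present at 11 of the 22 and 8 of the 224, against 1.75% of all peaks and 0.627% of windows. These sequences overlap the core or each other in part, and 9 of the 10 strong members with a core also had GCAGGGA.

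The core, GCAGGGA or CGAAGGG was present at 18 of the 22 strong members (81.8%, 59.7 to 94.8%) and 13 of the 14 in the step. The share was 7.59% of the other members, 3.24% of X promoter peaks, 1.88% of autosomal peaks outside promoters, 3.61% of all peaks and 1.43% of windows of X. The last 2 of these sequences were picked from the strong members, and the core was known from earlier results of these data. The shares of all of them there are thus a description. GTGGATA, picked in the same way, was at 8 of the 22, 1 of the 224, 0.966% of all peaks and 1.50% of windows. F56C3.1 had GTGGATA without the others, and F19H6.5, bcat-1 and sdz-19 had none of the 4.

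**Figure D3:**
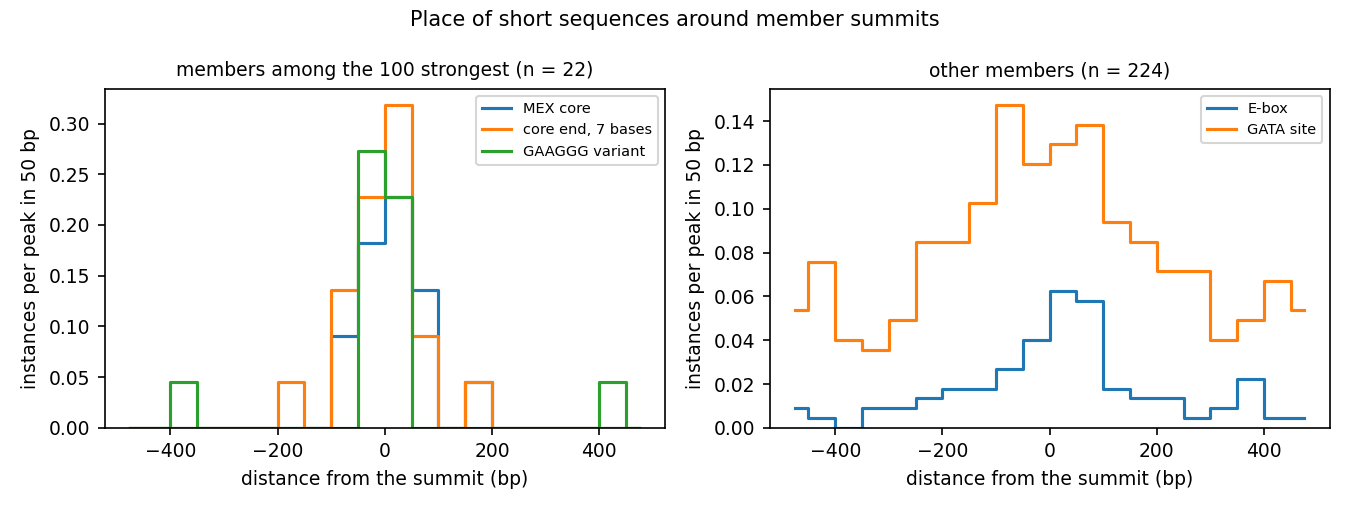
Instances per peak in bins of 50 bp (y axis) by distance from the summit in bp (x axis). At the 22 strong members (left) the core and its relatives gather within 100 bp of the summit, with 14, 17 and 11 instances; at the other 224 members (right) 42 E-boxes and 120 GATA sites lie within 100 bp.

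Of the other 224 members, 102 had an E-box or a GATA site and 122 had neither, and 17 had the core or a related sequence. The E-box, the site of basic helix-loop-helix factors such as the MAX family, was found at 38 of 246 members (15.4%, 11.2 to 20.6%), against 9.31% of X promoter peaks, 13.5% of autosomal peaks outside promoters, 10.2% of all peaks and 2.64% of windows of X. It was at 1 of the 22 strong members, bcat-1, and at 37 of the 224 others (16.5%). Members with an E-box had a median signal of 206 and those without it one of 142.

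The GATA site, bound by the GATA factors that direct intestinal and epidermal genes, was found at 88 members (35.8%, 29.8 to 42.1%), against 28.3% of X promoter peaks, 34.5% of autosomal peaks outside promoters, 27.9% of all peaks and 19.1% of windows of X. It was at 4 of the 22 strong members and 84 of the 224 others. Both sites were present at 20 members. In E-box and GATA shares members were close to autosomal peaks outside promoters.

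The nuclear receptor half-site AGGTCA was at 11 members (4.47%, 2.25 to 7.86%), against 5.65% of all peaks and 5.30% of windows of X, so its share at members was below that in windows of the chromosome, which lay within the interval. The GA repeat GAGAGAG was at 27 members (11.0%), against 16.8% of autosomal peaks outside promoters, 14.5% of all peaks and 2.49% of windows. The GC box GGGCGG was at 14 members (5.69%), against 9.16% of all peaks and 2.45% of windows. The tRNA promoter element box B, searched as GTTCGANNC, was at 3 members (1.22%), against 1.41% of windows of X. Its share was 62.5% at the X peaks near tRNA genes and 6.69% at all peaks. The rule removed summits within 200 bp of tRNA genes, so the lower share at members than in these sets was largely fixed by the rule.

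Base composition peaked at the summits. The median GC content of members was 40.3% within 100 bp of the summit and 33.8% at 300 to 500 bp from it, against 34.8% in windows of X. Within 100 bp it was 40.8% at the 22 strong members and 39.8% at the other 224. The part of the core's share that GC content accounts for was not tested.

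Most members lay between genes. The summit was intergenic for 150 members (61.0%, 54.6 to 67.1%), against 45.8% of autosomal peaks outside promoters and 56.4% of all peaks. Of the sequence that meets the position rule, 37.4% is intergenic on X and 27.4% on the autosomes, so intergenic summits exceeded their share of sequence in both sets. The higher intergenic share at members thus went with more intergenic sequence on X. It lay in an intron for 54 (22.0% of members, 32.3% of that sequence), in a coding exon for 14 (5.69%, 21.6%), in a non-coding RNA gene for 16 (6.50%, 2.08%), in an untranslated exon for 10 and in a pseudogene for 2. Coding exons thus held a smaller share of summits than of sequence, and non-coding RNA genes a larger one. Autosomal peaks outside promoters went the same way in both classes. There, coding exons held 11.3% of summits and 26.6% of sequence, and non-coding RNA genes 8.80% and 1.50%. Of the 22 strong members, 19 were intergenic, 2 intronic and 1 in a coding exon.

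**Figure D4:**
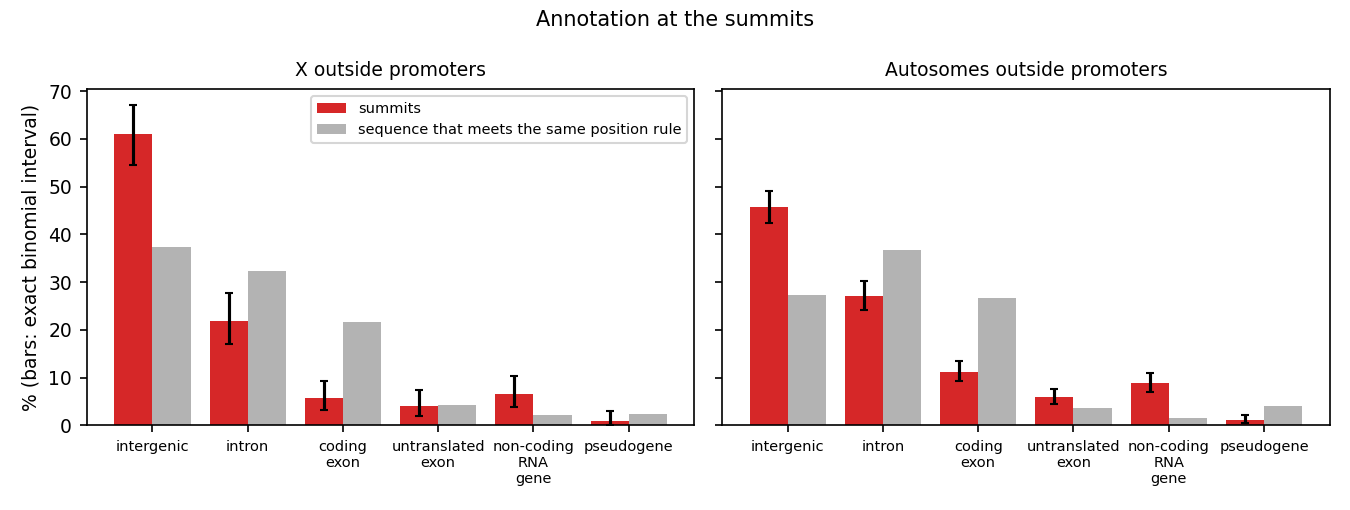
Share of summits in each annotation class (red, with exact 95% binomial intervals) and share of the sequence that meets the same position rule (grey), in percent, for X outside promoters (left) and autosomes outside promoters (right). Intergenic summits make up 61.0% of members and 45.8% of the autosomal peaks, and intergenic sequence makes up 37.4% and 27.4% of the sequence.

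Intronic members were led by cest-16 (2054, in mom-1), Y41G9A.17 (1548), K09C4.4 (456) and the mdl-1 peak in abts-4 (382), abts-4 being an anion transporter gene. In coding exons the highest were C41A3.2 in pks-1 (1644), ccd-5 (256), the serp-1.1 peak in F59F4.3 (227) and hpo-34 (208). In untranslated exons they were F55A4.13 in nlf-1 (205), ftt-2 (200), and the 2 T02C5.1 peaks in igcm-3 (174 and 161). ftt-2 encodes a 14-3-3 protein and nlf-1 a factor for the sodium leak channel. All but the first of the coding-exon members were below 300 in signal.

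The nearest protein-coding 5′ end was a median of 2146 bp away for members and 1739 bp for autosomal peaks outside promoters. More than 5000 bp separated them for 31 members (12.6%) and 7.39% of the autosomal peaks. At the limits of the rule, the member nearest to the upstream side was fbxb-58, 1004 bp upstream with a signal of 1428, followed by vav-1 (1019 bp, 90.7) and gid-2 (1037 bp, 123). Just inside the promoter window lay srxa-8 (994 bp upstream, 106), ZK154.6 (990 bp, 215) and nhr-120 (982 bp, 111).

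On the downstream side the nearest members were suox-1 (270 bp, 95.0), C55B6.1 (331 bp, 114) and C05G5.7 (339 bp, 163), with ccdc-149 (200 bp, 95.0), H40L08.3 (192 bp, 139) and C18A11.1 (184 bp, 110) just inside the window. At the tRNA limit, xol-1 (223 bp, 1583), C02B4.3 (248 bp, 108) and daf-12 (418 bp, 142) were members. The X peaks nearest to aexr-3 (154 bp, 134), pix-1 (141 bp, 131) and nlp-76 (127 bp, 118) were not. Of the peaks close to a limit, fbxb-58 and xol-1 belonged to the strong class, and both were members.

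Some members lay in runs. The longest run with gaps of at most 10 kb, a span chosen after the values were seen, held 9 members over 14.5 kb around mdl-1, R03E9.2 and abts-4, with signals of 94.9 to 486. mdl-1 encodes a MAD-like basic helix-loop-helix repressor that pairs with a MAX-like partner. Of these 9 members, 6 had an E-box and 4 a GATA site. The highest, near R03E9.2, had 486 in the pooled list, 338 in replicate 1 and 157 in replicate 2, and the next, in the non-coding gene R03E9.10, had 403.

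The second run held 8 members over 21.5 kb around mxl-3, ptr-24 and C49F8.15, with signals of 136 to 260, and 2 of them had an E-box. mxl-3 encodes a MAX-like factor that represses lipase genes in fed animals. Runs of 4 members lay at fkh-9, a forkhead factor gene, where all 4 had a GATA site (110 to 248), at ZK470.2 and ZK470.4 (117 to 232) and at F55A4.13 (102 to 205). In total 17 runs had at least 3 members. Members are summits, so 1 interval can add several: the run of 9 lay in 8 intervals and the run of 8 in 7. The run of 3 at C30E1.4 lay in 1 interval. No count of runs among other peaks is given here, so the number does not set members apart.

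Near hlh-29, 3 members lay within 1.22 kb, with signals of 688, 236 and 170. The first and second of these sit in copies of one sequence in opposite orientation: the stretch at the first matched chrX:17545639-17545827 at 98.4% identity and the stretch at the second matched chrX:17544412-17544613 at 97.5%. Reads from one copy can be placed on the other, so the signal of each is uncertain. Beside them, C53B7.6, in the small nucleolar RNA gene C53B7.8 (182), and M163.11 (100) also had a second copy. That makes 4 of 246 members (1.63%), against 3.64% of X promoter peaks and 5.99% of autosomal peaks outside promoters. The share of all peaks, 5.87%, includes the X peaks near tRNA genes (27.3%), which the rule leaves out of the members.

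Several members were in, or nearest to, genes of the receptor's own family. Of 23 genes named nhr on X, 8 were nearest to or host of a member (34.8%), against 198 of 2727 protein-coding genes of X (7.26%). nhr-3 had an intronic member with a signal of 324. nhr-14 had 3 members (276, 201 and 108), nhr-1 had 2 (163 and 97.0), and nhr-120 (160), nhr-48 (143), nhr-17 (129), nhr-32 (113) and nhr-45 (109) had 1 each. None of these was among the 100 strongest peaks. The members of nhr-3, nhr-120 and nhr-45 and the weakest of nhr-14 were intronic, and the others were intergenic. Of the intergenic ones, those of nhr-1 lay 8107 and 4829 bp upstream of its 5′ end and that of nhr-48 3456 bp upstream. The count took no account of the length of genes or of the sequence between them. daf-12, the receptor for dafachronic acids, which carries another kind of name, had 2 members (165 and 142).

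Other lists had few or none. Collagen genes gave 2 of 27, col-185 (610) and col-175 (141), and homeobox genes 1 of 22, ceh-60 (191), which promotes yolk gene expression. Of 75 neuronal genes on X, 0 were nearest to or host of a member, and the same held for 3 heterochronic genes, 5 yolk protein genes and 3 GATA factor genes. With so few genes, the short lists cannot tell 0 from 7.26%.

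Non-coding RNA genes were close to a number of members, counting summits inside the gene or from 1000 bp before to 200 bp after its start. Of 74 microRNA genes on X, 8 had such a member, from 6 members in all (2.44% of members, 0.900 to 5.23%), against 0.423% of the sequence that meets the position rule. The peak upstream of the mir-54, mir-55 and mir-56 cluster had a signal of 268 in the pooled list, 156 in replicate 1 and 116 in replicate 2. The pair mir-239a and mir-239b shared 2 members (159 and 117), mir-8196a had 182, mir-55b 159 and mir-47 94.0. None of these microRNA members was among the 100 strongest peaks.

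The highest signals beside non-coding genes belonged to strong members described above: the T27A8.7 peak (1693) lay 781 bp upstream of the small nucleolar RNA gene T27A8.8. The xol-1 peak (1583) lay 212 bp upstream of the non-coding gene C18A11.13. Among longer RNAs, C30E1.9 had 3 members in 1 interval (490, 196 and 120), tts-1 had 270, and the long intergenic linc-103 had 332. A member 185 bp upstream of rncs-1, which encodes a double-stranded RNA that inhibits Dicer, had 165. A further summit 497 bp upstream of rncs-1 (158) was covered by no peak of either replicate list. Small nucleolar RNA genes gave 5 of 33, from 6 members (2.44%), against 0.223% of the sequence. Long intergenic RNA genes gave 6 of 38, from 6 members (2.44%), against 0.511% of the sequence. The other non-coding RNA genes numbered 2520 on X, and 43 of them had a member, from 40 members (16.3%, 11.9 to 21.5%), against 13.4% of the sequence, which lies within that interval. A member can count in several of these classes.

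The replicates agreed at the top of the list. All 22 strong members were in both replicate lists, at ranks up to 89 in replicate 1 and up to 102 in replicate 2, and the larger rank was at most 2.55 times the smaller. They were picked by the signal pooled from both replicates, so high ranks in both were in part set by that choice. Of all members, 237 (96.3%) had a summit covered by a peak in both lists of 30000 peaks, against 97.9% of all peaks. By the stricter measure of ranking among the top 2796 in each replicate, 157 members passed (63.8%, 57.5 to 69.8%), against 67.1% of all peaks, 81 passed in 1 replicate and 8 in neither. Across the 237 members Spearman's rho between the replicate signals was 0.675, and across all peaks it was 0.674; the points share their 2 libraries and the control, and the list was itself selected for agreement.

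**Figure D5:**
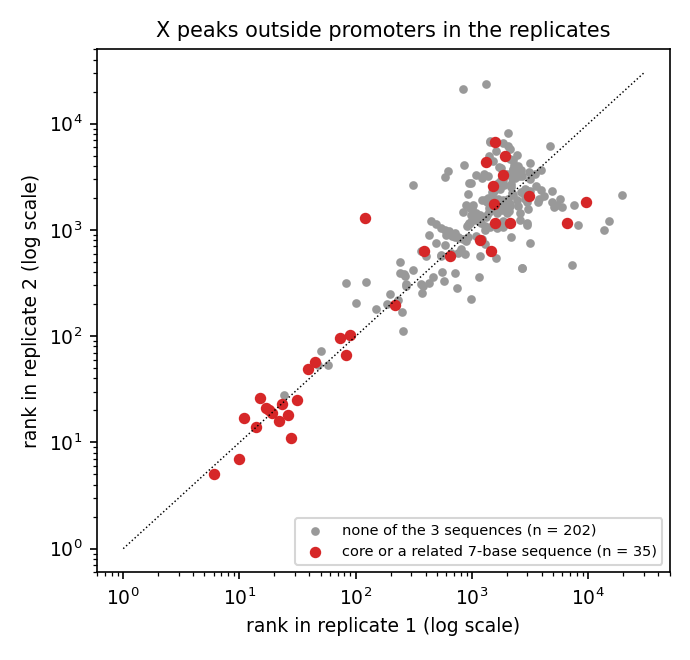
Rank of each member in replicate 1 (x axis) and replicate 2 (y axis), log scales, with the line of equal rank; red points have the core or a related sequence of 7 bases within 100 bp of the summit. The strong members lie along the line down to ranks 89 and 102, and the spread widens beyond.

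The ratio of the larger to the smaller rank had a median of 1.46 at members and 1.47 at all peaks. It was over 10 for 6 members, 2.53% of those in both lists, against 1.28% of all peaks in both lists and 1.25% of all 2796. Higher in replicate 1 were F13D11.3 (rank 838 in replicate 1, 21343 in replicate 2) and a second sma-9 summit (1312 and 23718) and the second Y41G9A.17 summit (121 and 1294), which holds a core. Higher in replicate 2 were C45B2.8 (7298 in replicate 1, 470 in replicate 2), dhs-28 (13537 and 1001) and a second mdl-1 summit (15085 and 1202). A second hrg-1 summit (19483 and 2131) had the next largest ratio and was not among the 6. dhs-28 encodes a peroxisomal enzyme of fatty acid side-chain shortening, sma-9 a transcriptional cofactor of the body-size pathway and hrg-1 a haem transporter.

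No peak of replicate 1 covered the summit at 7 members, and none of replicate 2 did at 3. Among those not covered in replicate 1 were an mxl-3 summit (176 in the pooled list), T02C5.1 (174), osm-11 (171), pdi-2 (169) and Y40C7B.4 (165). A summit that is not covered can still have a peak of that replicate beside it. The mxl-3 summit shared its interval with another member (142 in the pooled list), which had 126 in replicate 1. The T02C5.1 summit lay beside a member (161) with 99.0 in replicate 1. All were outside the 100 strongest peaks. Read numbers are not part of the lists used here, so how many reads lie behind a peak is unknown.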

How the data were processed

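Per the labels, chromatin of 2 biological replicates was sheared with a microtip and precipitated for the tag on NHR-102. The authors deposited peak lists, with a signal value and a summit for each peak: 30000 peaks for each replicate, and an optimal list of 2796 peaks made from both by the irreproducible discovery rate (IDR). Per the deposited sample notes, both replicates shared a control file. Which aligner, peak caller and IDR threshold were used is not given in the sources used here. Lists in ce10 were not used here. Signal is the deposited value and was used only within a list. Depth is unknown.

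Summits in ce11 were set against Ensembl release 115 (WBcel235) and motifs were counted on both strands in 201 bp. A replicate peak matched when it covered the summit, the nearest own summit being taken. Second copies were matches of at least 90% over at least 100 bp (blastn 2.17.0). Windows for the background were all adjacent windows of 201 bp. Shares have exact binomial (Clopper-Pearson) 95% intervals for counting error only; with 1 group and peaks that are not replicates, no p-value was computed. Named genes were the 25 strongest members, up to 4 per annotation class, those richest in cores, those differing most between replicates, those at the rule's limits and members of 8 gene lists or near non-coding genes; members of runs and those in the closing observations were named after their values were seen. Motif search and the position rule were tested on simulated data. Members, lists and the core were chosen with earlier results of these data known. Python 3.11.15, numpy 2.4.6, pandas 2.3.3 and scipy 1.17.1 were used. Alternatives were other promoter windows, tRNA distances, motif windows and cores, the stronger 1398 peaks, other ranks, and each replicate alone.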

Additional observations from a re-analysis of the deposited data

How the results depend on the processing

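Of 32 values under other settings, 23 stayed within the interval or factor allowed for each, and 9 moved. The number of members was 127 among the stronger 1398 peaks and between 201 and 309 under other promoter windows. Members were 32% of the 50 strongest peaks and 14.5% of the 200 strongest, and ranking by 1 replicate alone gave 21 to 24% of the 100 strongest. The core share was 11.0% in the stronger 1398 peaks, 13.8% with 1 mismatch allowed and 7 to 7.18% among members supported by 1 replicate. The share among the strongest peaks of both replicates was 53.3% when at least 50% of both intervals had to overlap, 88.2% with a list of double length, and 79.3 to 81.3% for 1 replicate alone. Median GC content was 37.9% within 200 bp. Intergenic shares stayed between 58.7 and 62.5%. Leaving out xol-1 and 2 further members, by a tRNA distance of over 500 bp, gave 243 members and a core share of 5.35%. No paired analysis was possible because there is only 1 group. Unknown depth limits what can be said of members near the lowest signal of 90.6, and nothing here separates binding of NHR-102 from signal that other tagged proteins would give.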

Other observations

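Some nearest or host genes of members belong to energy and amino acid metabolism; those named here were chosen after their values were seen, from no fixed list and with no count against other genes. Both a catalytic and a regulatory subunit gene of AMP-activated protein kinase, the cellular energy sensor, were among them: aak-2 had an intronic member with a signal of 207 in the pooled list, 120 in replicate 1 and 91.5 in replicate 2, with an E-box, and aakg-3 had a member 4701 bp upstream with 160. acly-1, for ATP-citrate lyase, had 316 with 1 E-box and 4 GATA sites, and pdk-1, a kinase of the insulin pathway, had 298 and 119.

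Of amino acid genes, bcat-1 (816) led, followed by tatn-1 (244 and 118), for tyrosine aminotransferase, and sams-1 (133 and 111), for S-adenosylmethionine synthetase. asns-2 (125), gln-1 (106) and cbs-1 (91.8), for asparagine synthetase, glutamine synthetase and cystathionine beta-synthase, had lower values. Each of these except bcat-1 was outside the 100 strongest peaks. The bcat-1 member lay 4996 bp upstream of the 5′ end, and those of tatn-1 lay 7319 and 7116 bp upstream. The stronger sams-1 member lay 1198 bp upstream. The weaker one and those of asns-2, gln-1 and cbs-1 lay inside the gene.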
